A study of Drosophila melanogaster with 12 samples.

Results

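The effect of *ISWI* mutation on the female larval transcriptome was described from 6 RNA-seq libraries, 3 of *ISWI* mutant females and 3 of control females, out of 12 libraries in the series. The libraries were taken by their column names alone, which give genotype, sex and replicate, and all 41081 transcripts of the table were considered. Mutant females were Iswi1/Iswi2 third-instar larvae, that is, they carried a different mutant allele of *ISWI* on each homolog. They came from a cross of *yw* stocks in which each allele was kept over a GFP-marked balancer, and were picked as larvae without GFP. Control females were +/+ third-instar larvae. The other 6 libraries were males of the same genotypes, Iswi1/Iswi2 and +/+. Each library was made from pooled whole larvae, so fewer cells of a type and less RNA per cell cannot be told apart. Strain background and the rest of the chromosome that carries *ISWI* differed together with the genotype and cannot be told apart from the mutation.

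ISWI is the ATPase of several chromatin remodeling complexes of *Drosophila*, which slide and space nucleosomes, and its loss is known to alter the structure of the male X chromosome. Transposable elements (TEs) are mobile sequences present in many copies. Retrotransposons move through an RNA copy and fall into those with long terminal repeats (LTRs) and those without. DNA elements move without an RNA copy, mainly by being cut and pasted. Most TE copies are kept silent by heterochromatin and small RNAs. The table held 3 classes of rows: 31271 known transcripts named by their FlyBase identifiers, 5969 transcripts of 2342 loci that the authors assembled from the reads, and 3840 TE insertions. All 3840 insertions could be matched to a symbol, whose part before the braces gave 153 families. Symbols were taken as spelled, so Dm88 and DM88 count apart, and an insertion whose symbol starts with an RR number counts as a family of its own. Families with several insertions are groups of near-identical copies, and reads are divided among the copies with uncertainty. No table pairing the identifiers of known transcripts with genes was used here, apart from 27 transcripts listed as synonyms in RefSeq. The level of *ISWI* itself and the markers of larval tissues were therefore not checked.

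The values are read counts divided by a size factor for each library, called normalized counts here. The reads recovered from them numbered between 89290368 and 97732800 in mutant females and between 97395769 and 119202607 in control females. Replicate libraries differed by a median of 0.588 to 0.593 (absolute log2 ratio) among mutant females and 0.444 to 0.458 among control females, while libraries of different genotype differed by 0.881 to 0.984. Transcripts that were limited to males in controls, with at most 3 reads in each control female library and at least 100 reads in each control male library, were also counted. There were 928 of these, and 275, 99 and 405 of them had over 3 reads in the mutant female libraries, against 0 in each control female library by definition. Their summed level was 15087, 11291 and 23596 normalized counts in mutant females, against 91.5, 79.5 and 117 in control females. The definition keeps the sums of control females low, so this contrast is not a test. Of the 928, 414 had at most 3 reads in every mutant female library as well. In control males the summed level was between 770843 and 984014.

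**Figure D1:**
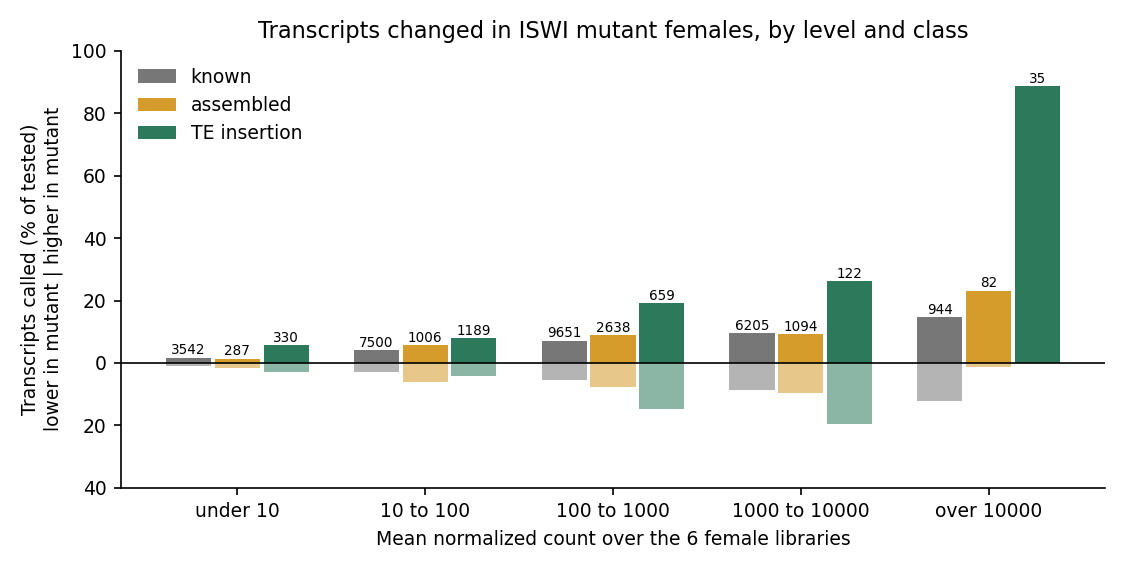
Share of the tested transcripts called higher (upward) or lower (downward, paler) in *ISWI* mutant females than in control females, by class and by the mean normalized count over the 6 female libraries; the number of transcripts tested stands over each bar. The share called in either direction increased with level in all 3 classes, and 31 of the 35 TE insertions over 10000 were called higher.

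Of the 35284 transcripts tested, which reached a normalized count of 10 in 3 or more libraries, 4518 (12.8%) were differentially expressed (DE) between mutant and control females at an adjusted p under 0.05 (limma). Of these, 2513 (7.12%) were higher and 2005 (5.68%) lower in mutant females. The libraries of the genotypes did not overlap for 12516 transcripts (35.5%). Among known transcripts 1793 rose and 1447 fell of 27842 tested (11.6% DE). Among assembled transcripts 417 rose and 376 fell of 5107 (15.5%), and among TE insertions 303 rose and 182 fell of 2335 (20.8%). The median absolute log2 fold change was 0.787 for known transcripts, 1.34 for assembled transcripts and 0.943 for TE insertions. The larger fold changes of assembled transcripts came with the widest error, a median SE of 1.05 against 0.682 and 0.593. The libraries of the genotypes did not overlap for 34.3% of known transcripts, 33.6% of assembled transcripts and 54.1% of TE insertions.
Of the 928 transcripts limited to males in controls, whose definition left little room for a fall, 52 (5.60%) rose in mutant females. Their part in the results was not tested. Without them the counts were 2461 higher and 2005 lower.
The count of DE transcripts depended on the number of libraries and on the tool. Leaving out any 1 female library lowered it, to between 2733 without control replicate 2 and 3498 without mutant replicate 2. It was 3008 without control replicate 3 and 7658 with DESeq2.

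The share of transcripts called increased with their level, the mean normalized count over the 6 female libraries. It was 3.22% under 10, 8.12% between 10 and 100, 14.7% between 100 and 1000, 18.8% between 1000 and 10000, and 28.7% over 10000. The median absolute log2 ratio between replicates was 1.47 under 10 and 0.369 over 10000 in mutant females. In control females it was 0.691 under 10, 1.06 between 10 and 100, and 0.288 over 10000. The smallest absolute log2 fold change that was called was 2.09 under 10 and 0.45 between 1000 and 10000. Within a level the shares of the classes were unequal. Between 100 and 1000, 34.0% of 659 TE insertions, 16.6% of 2638 assembled transcripts and 12.8% of 9651 known transcripts were DE. Over 10000 the balance leaned to higher in mutant females, with 189 up and 115 down, and the median log2 fold change was 0.22. The classes differed in this range. Among known transcripts 139 rose and 114 fell, among assembled transcripts 19 rose and 1 fell, and among TE insertions 31 rose and 0 fell. The level includes the mutant libraries, so a transcript that is high in mutants alone can reach this range. Of the 35 TE insertions over 10000, 29 were copies of copia, of which 27 rose, and the others that rose were copies of gypsy and diver2 and the insertions RR51007 and RR51475.

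**Figure D2:**
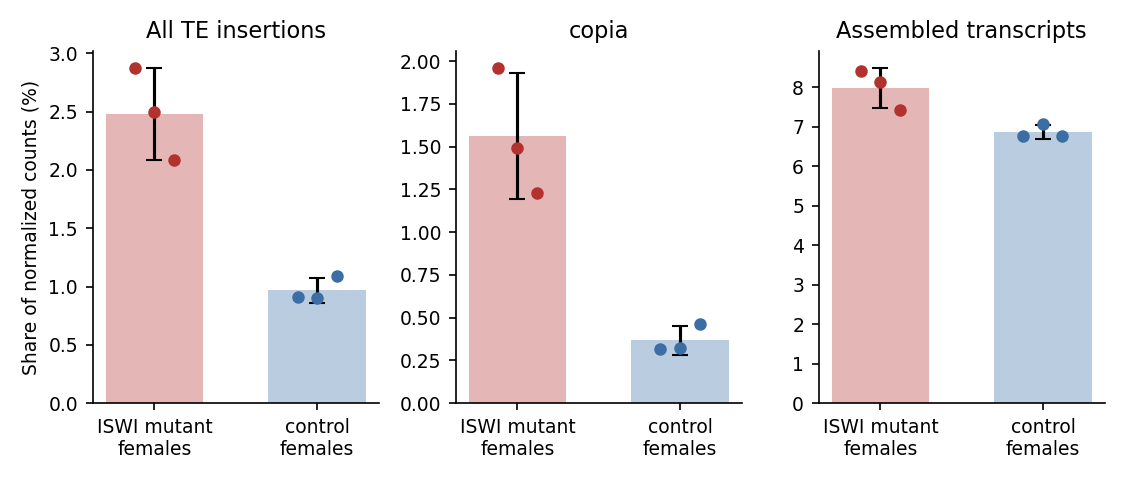
Share of all normalized counts of a library (%) in TE insertions, in the copia family and in assembled transcripts; points are the 3 libraries of a genotype, bars the mean and error bars the SD. All 3 mutant libraries lie above all 3 control libraries in each panel.

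TE RNA took up a larger part of the mutant transcriptome. TE insertions held 2.87%, 2.50% and 2.08% of the normalized counts in mutant females, against 0.911%, 0.905% and 1.09% in control females. The means were 2.48 ± 0.394% in mutant females and 0.970 ± 0.107% in control females (SD, n = 3 each), a ratio of 2.56. The smallest p of an exact permutation test of 3 libraries against 3 is 0.1 (two-sided), and this value was reached. The family copia alone held 1.96%, 1.49% and 1.23% in mutant females, against 0.315%, 0.323% and 0.465% in control females. Without copia the share of TEs was 0.922 ± 0.0767% in mutant females and 0.602 ± 0.0238% in control females, again without overlap. Assembled transcripts held 7.99 ± 0.508% in mutant females and 6.86 ± 0.177% in control females, and known transcripts held 89.5 ± 0.897% in mutant females and 92.2 ± 0.152% in control females.

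The insertions of a family were then summed, and of 150 families tested 57 were DE (38.0%), 39 higher and 18 lower in mutant females. By type of TE, of 62 LTR families, 23 rose and 7 fell. Of 42 non-LTR families, 9 rose and 5 fell. Of 22 families of DNA elements, 1 rose and 2 fell, and of 24 that could not be placed 6 rose and 4 fell. LTR families held 2.19 ± 0.359% of the normalized counts in mutant females and 0.749 ± 0.0978% in control females. For non-LTR families the share was 0.0800 ± 0.00975% in mutant females and 0.0939 ± 0.00725% in control females, and for DNA elements it was 0.0612 ± 0.00888% in mutant females and 0.0833 ± 0.00148% in control females. Families that could not be placed held 0.150 ± 0.0343% in mutant females and 0.0434 ± 0.00711% in control females. LTR families thus held most of the TE counts in both genotypes. The 303 insertions that rose belonged to 74 families, and 151 of them (49.8%) to 8 families, led by a close relative of 17.6 that bears a bare number as its name, with 30 insertions. It was followed by copia with 28, flea with 20, Tirant with 18, opus with 17, Cr1a and INE-1 with 13 each, and Burdock with 12.

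**Figure D3:**
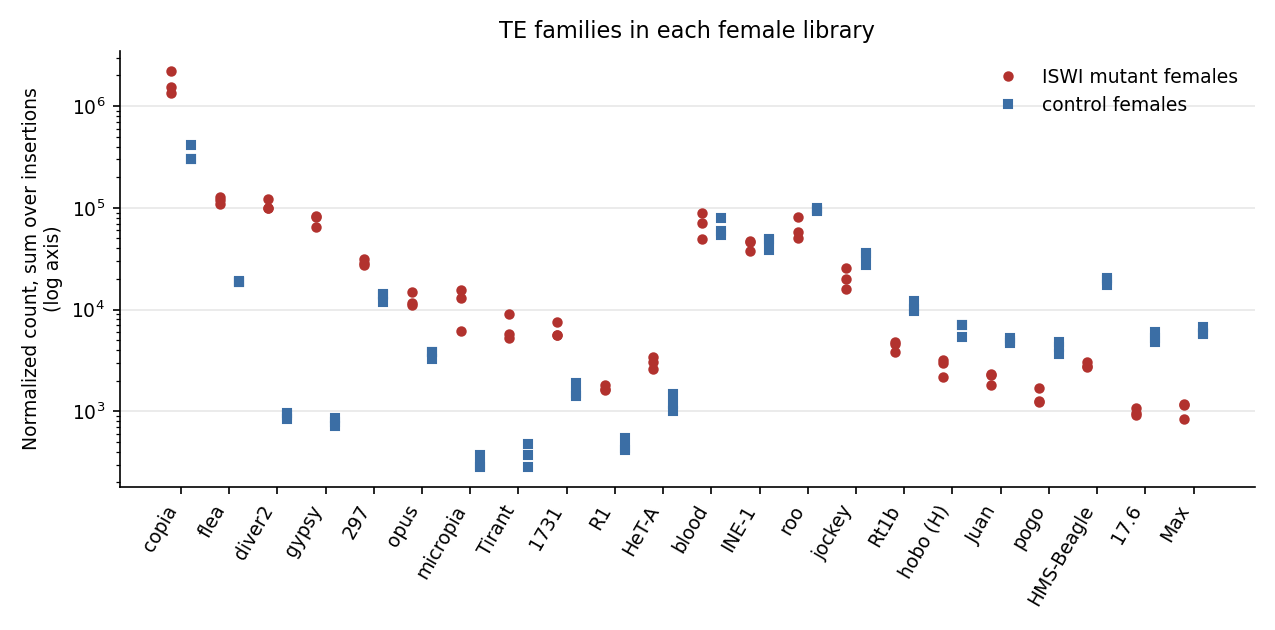
Normalized counts summed over the insertions of 22 TE families (log axis), with the 3 *ISWI* mutant female libraries as circles and the 3 control female libraries as squares to their right. For gypsy, diver2, micropia and Tirant the genotypes are over 10 times apart, while INE-1 and blood overlap.

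In several LTR families many insertions were called higher. Reads of near-identical copies are divided among them with uncertainty, so insertions of a family are not independent of each other. Whether many copies or few gave rise to the reads was not tested. The family gypsy, an LTR element with an envelope gene that can form infectious particles, had 80905, 64643 and 82241 normalized counts in mutant females, against 794, 857 and 720 in control females (log2 fold change 6.58 ± 0.31, SE, adjusted p = 6.74e-12). Of its 11 insertions tested 7 rose. Tirant, also an LTR element with an envelope gene, had 9062, 5298 and 5701 normalized counts in mutant females, against 475, 284 and 368 in control females (log2 fold change 4.14 ± 0.33, SE, adjusted p = 2.01e-08), and 18 of 20 insertions rose. In both families the highest control library was far below the lowest mutant library. The most abundant family, copia, an LTR element without an envelope gene, had 2233616, 1528092 and 1349088 normalized counts in mutant females, against 304366, 299815 and 415211 in control females (log2 fold change 2.31 ± 0.27, SE, adjusted p = 2.97e-06). Of 35 copia insertions 28 rose and 1 fell. The copy with the highest mean over the 6 female libraries, copia{}837, had 86773, 66392 and 55088 normalized counts in mutant females, against 19350, 20005 and 26579 in control females (log2 fold change 1.65 ± 0.27, SE, adjusted p = 0.00312). The copy copia{}631 had 86796, 80251 and 58369 normalized counts in mutant females, against 9464, 10144 and 13963 in control females (log2 fold change 2.75 ± 0.28, SE, adjusted p = 0.000188), and was above copia{}837 in every mutant library. In the family flea, 20 of 25 insertions rose, and the sum was 109562, 128863 and 118479 normalized counts in mutant females, against 19297, 18489 and 18801 in control females (log2 fold change 2.65 ± 0.23, SE, adjusted p = 4.69e-08).

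Further LTR families with several insertions called higher changed less. In the family drawn between gypsy and opus in the plot of TE families, the relative of 17.6 named by a bare number, the sum was 27602, 31578 and 28608 normalized counts in mutant females, against 14103, 11798 and 13891 in control females (log2 fold change 1.14 ± 0.27, SE, adjusted p = 0.00313), and 30 of its 55 insertions rose. The insertion of this family that the study names had 633, 788 and 690 normalized counts in mutant females, against 323, 242 and 240 in control females (log2 fold change 1.40 ± 0.35, SE, adjusted p = 0.0262). Its libraries did not overlap between genotypes, but the adjusted p was 0.0574 without mutant replicate 1, 0.0769 without mutant replicate 2, 0.0643 without mutant replicate 3, 0.0875 without control replicate 2 and 0.084 without control replicate 3. For opus, 17 of 26 insertions rose and the sum was 14967, 11199 and 11535 normalized counts in mutant females, against 3855, 3258 and 3824 in control females (log2 fold change 1.78 ± 0.39, SE, adjusted p = 0.00175). In Burdock 12 of 17 rose, in springer 6 of 14, in Dm88 5 of 25 and in 1731 4 of 8, beside 13.0% of all TE insertions tested. The log2 fold changes of these sums were 1.11 ± 0.27 for Burdock, 1.69 ± 0.30 for springer, 1.66 ± 0.27 for Dm88 and 1.96 ± 0.32 for 1731 (SE), with adjusted p between 9.68e-05 and 0.00332. Without its largest insertion, Dm88 stood at a smaller log2 difference of 0.87 (adjusted p = 0.0179).

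**Figure D4:**
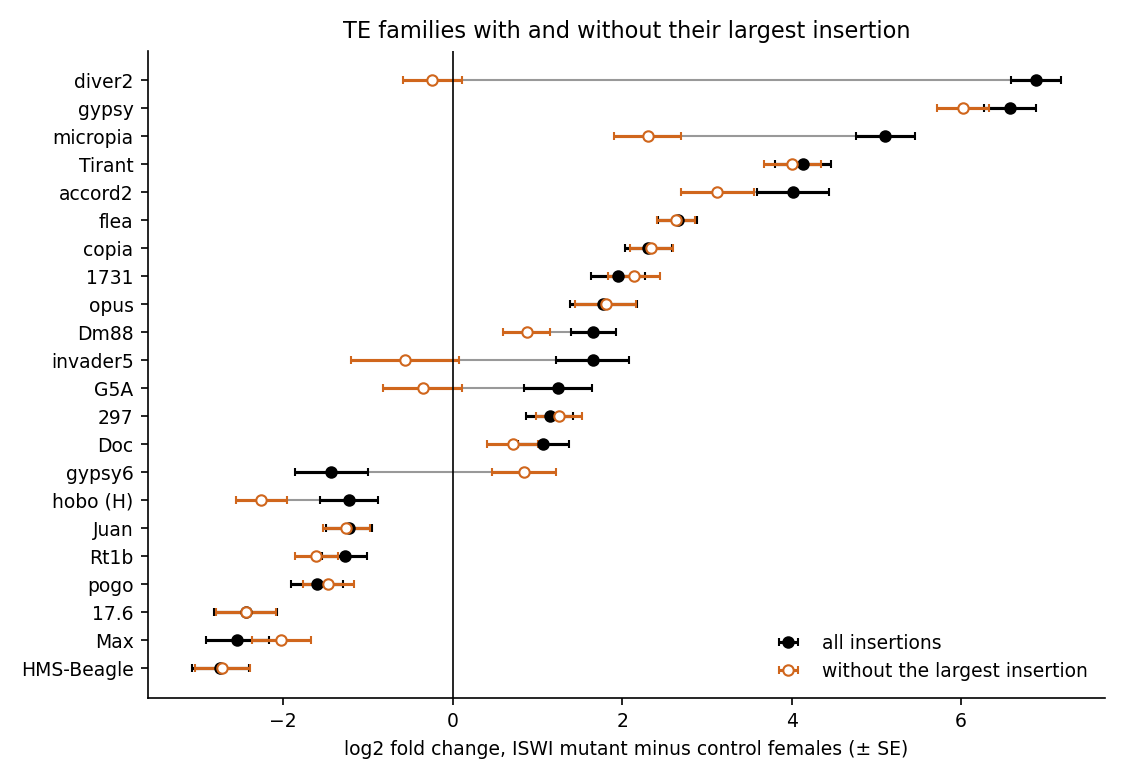
log2 fold change of 22 TE families DE between *ISWI* mutant and control females (± SE), summed over all insertions (filled) and without the largest insertion of the family (open). The points of gypsy, Tirant, flea and copia stay close together, while those of diver2, invader5, G5A and gypsy6 lie on opposite sides of 0.

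In other families the rise lay in counts assigned to a single copy. The family diver2 had the largest rise, with 100643, 123500 and 100387 normalized counts in mutant females, against 972, 917 and 846 in control females (log2 fold change 6.88 ± 0.30, SE, adjusted p = 3.82e-12), but 99.3% of its mutant counts came from diver2{}1632. This insertion had 99878, 122709 and 99751 normalized counts in mutant females, against 150, 0 and 0 in control females, a ratio of means of 2152 (adjusted p = 0.000242). Its fitted log2 fold change, which rests on the 1 added to control libraries at 0, was 14.29 ± 1.53 (SE). It was 16.71 without control replicate 1 and 13.09 without control replicate 2 or control replicate 3. The rest of the family was slightly lower in mutant females, by -0.24 on the log2 scale, which was not DE (adjusted p = 0.634). The sum over accord was 5912, 4018 and 2667 normalized counts in mutant females, against 598, 601 and 624 in control females (log2 fold change 2.71 ± 0.31, SE, adjusted p = 2.42e-06), with 99.9% of the mutant counts in accord{}818. For invader5, which had 655, 484 and 529 normalized counts in mutant females, against 188, 148 and 192 in control females (log2 fold change 1.65 ± 0.44, SE, adjusted p = 0.00582), the rest without invader5{}1147 stood at a log2 difference of -0.56 (adjusted p = 0.535). The families micropia and accord2 lay in between. Of the mutant counts of micropia 88.9% came from micropia{}1243, and the sum was 15721, 6195 and 13043 normalized counts in mutant females, against 297.2, 281 and 368 in control females (log2 fold change 5.11 ± 0.35, SE, adjusted p = 2.06e-09). Without this copy the log2 difference was still 2.30 (adjusted p = 7.22e-05). In accord2, with 4166, 8162 and 8751 normalized counts in mutant females, against 360, 361 and 537 in control females (log2 fold change 4.02 ± 0.43, SE, adjusted p = 9.58e-07), the rest stood at 3.12 (adjusted p = 4.18e-06).
Across the 57 DE families, 15 consisted of 1 insertion, and in 41 the rest could be tested without the largest insertion, a comparison added after the data were seen. The rest had the same direction in 36 families, was DE in that direction in 27, and had the other direction in 5 without being DE.

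The families that fell were also LTR elements in part. HMS-Beagle had 2764, 3069 and 2714 normalized counts in mutant females, against 17367, 20364 and 19477 in control females (log2 fold change -2.74 ± 0.34, SE, adjusted p = 4.84e-06), and 11 of 13 insertions fell while 1 rose. For 17.6 the sum was 1084, 952 and 913 normalized counts in mutant females, against 4851, 5238 and 5968 in control females (log2 fold change -2.44 ± 0.37, SE, adjusted p = 5.35e-05), and 13 of 15 insertions fell. Max had 1153, 1168 and 847 normalized counts in mutant females, against 5711, 5824 and 6762 in control females (log2 fold change -2.54 ± 0.37, SE, adjusted p = 3.85e-05). The mutant libraries of these 3 families were all far below the control libraries. The Max insertion that the study names had 103, 119 and 99.8 normalized counts in mutant females, against 1928, 1960 and 2177 in control females (log2 fold change -4.22 ± 0.47, SE, adjusted p = 0.000298), although only 3 of the 15 Max insertions fell and 2 rose. In gypsy6, with 779, 905 and 569 normalized counts in mutant females, against 2016, 1902 and 2068 in control females (log2 fold change -1.43 ± 0.43, SE, adjusted p = 0.0127), the fall lay in counts assigned to the single copy gypsy6{}RR48376, and the rest stood at 0.84 (adjusted p = 0.0977). The adjusted p of gypsy6 was 0.063 without mutant replicate 3.

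In both DNA elements that fell, many insertions were called lower. The family pogo, a relative of the Tc1/mariner elements, had 1715, 1237 and 1268 normalized counts in mutant females, against 4308, 3635 and 4848 in control females (log2 fold change -1.61 ± 0.31, SE, adjusted p = 0.000503), and 14 of 34 insertions fell. The hobo family (H) had 3227, 2998 and 2196 normalized counts in mutant females, against 7008, 5421 and 7087 in control females (log2 fold change -1.22 ± 0.34, SE, adjusted p = 0.00917), and 17 of 26 insertions fell while 1 rose. Most of the mutant counts of hobo (66.3%) lay in H{}1414, and without it the fall was larger, at -2.26 (adjusted p = 2.57e-06). The 2 DNA families with the most insertions showed little change in sum. INE-1, an old and abundant element, had 46178, 46741 and 37885 normalized counts in mutant females, against 49035, 47915 and 38462 in control females (log2 fold change -0.05 ± 0.23, SE, adjusted p = 0.884), and 13 of its 511 insertions rose and 18 fell. The sum over 1360 was 7576, 7683 and 6013 normalized counts in mutant females, against 8605, 8353 and 8969 in control females (log2 fold change -0.29 ± 0.26, SE, adjusted p = 0.388), with 9 of 127 insertions up and 7 down.

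Among non-LTR families, which resemble the LINE elements of mammals, Rt1b had 4624, 4764 and 3867 normalized counts in mutant females, against 10162, 9748 and 12218 in control females (log2 fold change -1.28 ± 0.27, SE, adjusted p = 0.00111), and 14 of 34 insertions fell while 1 rose. For Juan, 7 of 11 insertions fell and the sum was 2265, 2334 and 1822 normalized counts in mutant females, against 5299, 4682 and 4922 in control females (log2 fold change -1.22 ± 0.27, SE, adjusted p = 0.00175). The sum over jockey was 20204, 15856 and 25614 normalized counts in mutant females, against 27591, 35821 and 34387 in control females (log2 fold change -0.68 ± 0.25, SE, adjusted p = 0.0393), but the adjusted p was 0.0747 without mutant replicate 1, 0.175 without mutant replicate 2, 0.157 without control replicate 2 and 0.119 without control replicate 3. Without its largest insertion it was 0.0565. Of the 65 jockey insertions tested 12 fell and 4 rose. The telomeres of *Drosophila* are built from non-LTR elements, and the 3 that were called went in both directions. HeT-A, the most common of them, had 2598, 3388 and 3039 normalized counts in mutant females, against 1012, 1193 and 1494 in control females (log2 fold change 1.30 ± 0.30, SE, adjusted p = 0.00263). Of the HeT-A insertions 8 rose and 3 fell. TART-A, whose libraries overlapped, had 253, 352 and 841 normalized counts in mutant females, against 1812, 1479 and 790 in control females (log2 fold change -1.60 ± 0.46, SE, adjusted p = 0.0101), with an adjusted p of 0.0583 without mutant replicate 1 and 0.0547 without control replicate 1. TART-C, a single insertion near the limit of detection, had 12.2, 0 and 13.5 normalized counts in mutant females, against 0, 0 and 0 in control females (adjusted p = 0.0401), and its libraries overlapped too. Its adjusted p was 0.158 without mutant replicate 1, 0.172 without mutant replicate 3, 0.0704 without control replicate 1, 0.0908 without control replicate 2 and 0.0722 without control replicate 3, and 0.198 with the female libraries alone. R1, which inserts into the genes for 28S ribosomal RNA, was measured as 1 insertion and had 1615, 1674 and 1802 normalized counts in mutant females, against 413, 434 and 542 in control females (log2 fold change 1.88 ± 0.36, SE, adjusted p = 0.000564).

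Some abundant LTR families showed no DE. The sum over roo was 81506, 57432 and 50018 normalized counts in mutant females, against 95647, 92731 and 99327 in control females (log2 fold change -0.64 ± 0.29, SE, adjusted p = 0.0924). Although these libraries did not overlap, the test missed the threshold. Its adjusted p was 0.044 without mutant replicate 1 and 0.0261 with the female libraries alone. For blood the sum was 88720, 49476 and 70690 normalized counts in mutant females, against 79303, 59480 and 54627 in control females (log2 fold change 0.09 ± 0.26, SE, adjusted p = 0.829), and the genotypes overlapped. The family mdg3 had 8342, 87192 and 75212 normalized counts in mutant females, against 26248, 12316 and 12905 in control females (log2 fold change 1.24 ± 0.75, SE, adjusted p = 0.209). Here mutant replicate 1 stood far below the other 2 mutant libraries, and without it the log2 difference was 2.33 (adjusted p = 0.00787).

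Families without a known name that fell most were RR48344 and RR51000, each a single insertion. RR48344 had 109, 117 and 92 normalized counts in mutant females, against 788, 1925 and 464 in control females (log2 fold change -3.06 ± 0.68, SE, adjusted p = 0.00176). RR51000 had 12.2, 44.7 and 32.5 normalized counts in mutant females, against 132, 112 and 203 in control females (log2 fold change -2.41 ± 0.75, SE, adjusted p = 0.0161), with an adjusted p of 0.0795 without mutant replicate 1 and 0.0668 without control replicate 3.
Some single insertions fell further than their families. The insertion roo{}RR49033 had 9.72, 2.29 and 4.49 normalized counts in mutant females, against 585, 615 and 640 in control females (log2 fold change -6.73 ± 1.07, SE, adjusted p = 0.00267), although the family roo was not DE. HB{}5077 had 6.08, 8.03 and 0 normalized counts in mutant females, against 453, 317 and 390 in control females (log2 fold change -6.59 ± 1.32, SE, adjusted p = 0.00953), with a log2 fold change of -7.17 without mutant replicate 2 and -5.59 without mutant replicate 3. Rt1b{}1062 had 0, 0 and 3.36 normalized counts in mutant females, against 155, 132 and 146 in control females, at least 41.4-fold lower (adjusted p = 0.000385). Among the more abundant insertions, blood{}285 had 119, 433 and 806 normalized counts in mutant females, against 4809, 3027 and 3303 in control females (log2 fold change -3.39 ± 0.72, SE, adjusted p = 0.0126). Its log2 fold change was -2.62 without mutant replicate 1 and -3.99 without mutant replicate 3. The insertion jockey{}838 had 911, 640 and 1173 normalized counts in mutant females, against 1896, 2689 and 2923 in control females (log2 fold change -1.48 ± 0.26, SE, adjusted p = 0.00532).
The family Cr1a, a non-LTR element, held insertions of both kinds, 13 that rose and 8 that fell of 82, and its sum was 11142, 12533 and 13485 normalized counts in mutant females, against 7474, 6678 and 6947 in control females (log2 fold change 0.81 ± 0.39, SE, adjusted p = 0.112). The libraries did not overlap, and with the female libraries alone the adjusted p was 0.00217. Its copies Cr1a{}1995 and Cr1a{}2297 had 0 reads in the control libraries. The first had 2424, 3107 and 4923 normalized counts in mutant females, against 0, 0 and 0 in control females, at least 1330-fold higher (adjusted p = 0.00686). The second had 2449, 2910 and 4714 normalized counts in mutant females, against 0, 0 and 0 in control females, at least 1282-fold higher (adjusted p = 0.0113). With edgeR these adjusted p were 0.0528 and 0.0672. These lower bounds set the mutant mean against 3 reads per control library.

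Some transcripts were found in the libraries of a single genotype, with at least 10 reads in each library of it and at most 3 reads in each library of the other. There were 338 of these in mutant females and 392 in control females, 0.823% and 0.954% of the table. Of the 338 found in mutant females, 144 were known transcripts, 166 assembled transcripts and 28 TE insertions. Of the 392 found in control females, 187 were known, 180 assembled and 25 TE insertions. Assembled transcripts were thus 49.1% of the mutant set and 45.9% of the control set, but 14.5% of the table. The authors assembled them from the reads of the series, so a transcript read in a single genotype can enter this class. The contrast with the table is therefore not a test. The median level of assembled transcripts was higher, 549 normalized counts in the mutant set and 349 in the control set, against 74.0 and 66.1 for known transcripts. Of the 338, 44 were present in all 3 control male libraries with at least 10 reads, and 253 were present in all 3 mutant male libraries.

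Known transcripts could not be assigned to genes, so 2 that rose and 2 that fell stand for the class, the largest change and the most abundant in each direction. The transcript FBtr0085078 had 85763, 47657 and 64956 normalized counts in mutant females, against 0, 27.7 and 0 in control females, a ratio of means of 7163 (adjusted p = 0.00326). The fitted log2 fold change rests likewise on the 1 added to control libraries at 0, and was 14.36 ± 2.35 (SE). It was 15.97 without control replicate 2 and 13.55 without control replicate 1 or control replicate 3. FBtr0087560, the most abundant that rose, had 510588, 1111910 and 1065525 normalized counts in mutant females, against 216798, 188601 and 211697 in control females (log2 fold change 2.04 ± 0.42, SE, adjusted p = 0.0106). Both were above all control libraries, as the choice of named transcripts required. FBtr0304899 had 0, 0 and 0 normalized counts in mutant females, against 2154, 2016 and 4528 in control females, at least 832-fold lower (adjusted p = 1.08e-06). The most abundant that fell, FBtr0076095, had 153217, 94461 and 154113 normalized counts in mutant females, against 524018, 591874 and 582235 in control females (log2 fold change -2.11 ± 0.30, SE, adjusted p = 0.00154). The libraries of the genotypes did not overlap in either, which the choice required here too.

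The 27 known transcripts with a RefSeq synonym were all tested, and 2 rose (7.41%) and 0 fell, beside 11.6% DE of all known transcripts tested. At an unadjusted p under 0.05 limma put 5 of them higher and 1 lower. DESeq2 called 3 higher and 1 lower, and edgeR called 1 higher and 0 lower. The transcript FBtr0086701 is shared by *Pepck1*, which encodes phosphoenolpyruvate carboxykinase, an enzyme of gluconeogenesis, and *CG45087*. It had 70821, 77134 and 86342 normalized counts in mutant females, against 43008, 33678 and 38004 in control females (log2 fold change 1.03 ± 0.16, SE, adjusted p = 0.00278). FBtr0071676, shared by *Tim10*, a chaperone of mitochondrial protein import, and *CG42497*, had 2771, 2895 and 2605 normalized counts in mutant females, against 1739, 1531 and 1769 in control females (log2 fold change 0.72 ± 0.21, SE, adjusted p = 0.0468). In both the lowest mutant library was above the highest control library. The adjusted p of FBtr0071676 was 0.11 without mutant replicate 1, 0.118 without mutant replicate 2, 0.0863 without mutant replicate 3, 0.102 without control replicate 1, 0.15 without control replicate 2 and 0.0964 without control replicate 3. It was 0.058 with edgeR and 0.0528 with no filter on low counts. The transcript of *alpha-Spec*, a subunit of the membrane skeleton protein spectrin, had 42343, 42571 and 46746 normalized counts in mutant females, against 27431, 29527 and 29830 in control females (log2 fold change 0.60 ± 0.18, SE, adjusted p = 0.0504), just outside the threshold. With DESeq2 its adjusted p was 0.00623, with the female libraries alone 0.014 and with 0.5 added in place of 1 0.0499. For *Uba1*, the enzyme that activates ubiquitin, the values were 16428, 19015 and 21402 normalized counts in mutant females, against 26418, 30329 and 24715 in control females (log2 fold change -0.52 ± 0.17, SE, adjusted p = 0.0775), with an adjusted p of 0.0201 in DESeq2.

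**Figure D5:**
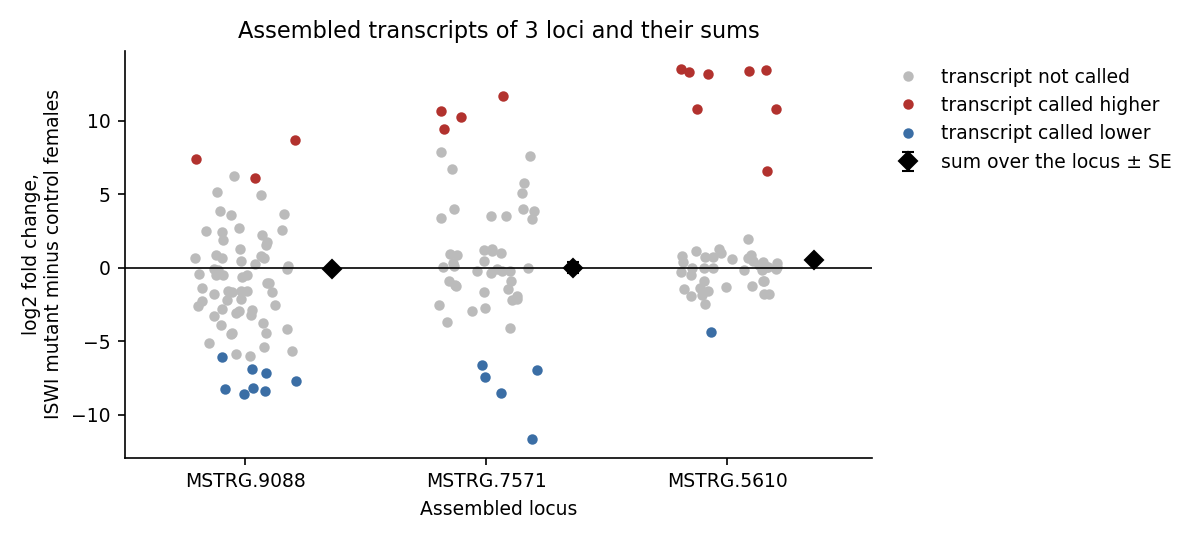
log2 fold change between *ISWI* mutant and control females of each tested transcript of 3 assembled loci (points, colored where DE) and of the sum over the locus (diamonds, ± SE). Transcripts of MSTRG.9088 and MSTRG.7571 were called in both directions while the sums lie near 0.

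Assembled transcripts share loci, and their counts were summed over each of 2156 loci tested. Of these, 379 (17.6%) were DE, 198 (9.18%) higher and 181 (8.4%) lower in mutant females. There were 515 loci with at least 1 DE transcript, and in 173 of them the sum was not DE. In 36 loci transcripts were called both higher and lower, and the sum was not DE in 21, higher in 8 and lower in 7. Locus MSTRG.9088 had 13914, 18218 and 17781 normalized counts in mutant females, against 17451, 20158 and 15704 in control females in sum (log2 fold change -0.10 ± 0.20, SE, adjusted p = 0.795), but 3 of its 73 tested transcripts rose and 8 fell. Of the 8 that fell, 6 had at most 3 reads in every mutant library. Locus MSTRG.7571 had 122769, 98296 and 107138 normalized counts in mutant females, against 133549, 113511 and 85771 in control females in sum, with a log2 fold change of -0.00271 ± 0.38 (SE), while 4 of 51 transcripts rose and 5 fell. All 4 that rose had at most 3 reads in every control library. In MSTRG.5610 the sum was 90911, 96018 and 111189 normalized counts in mutant females, against 70039, 64443 and 72342 in control females (log2 fold change 0.52 ± 0.22, SE, adjusted p = 0.138), and 8 of 49 transcripts rose, all at the limit of detection in control females, while 1 fell. All mutant libraries of this sum were above all control libraries. How reads were divided among the transcripts of a locus was not tested.

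The loci with the largest changes were near or at 0 reads in 1 genotype. Locus MSTRG.17438 had 37096, 29149 and 24041 normalized counts in mutant females, against 0, 0 and 0 in control females (adjusted p = 0.0119), and its transcript MSTRG.17438.2 was at least 11489-fold higher in mutant females, with an adjusted p of 0.0136 in limma and 0.0568 in edgeR. Locus MSTRG.5701 had 14078, 8630 and 11898 normalized counts in mutant females, against 0, 0 and 0 in control females (adjusted p = 0.000644). Locus MSTRG.5478 had 0, 0 and 1.12 normalized counts in mutant females, against 13640, 4004 and 9206 in control females (adjusted p = 8.94e-06), and its transcript MSTRG.5478.3 was at least 2569-fold lower. Locus MSTRG.9886 had 0, 0 and 0 normalized counts in mutant females, against 4633, 6140 and 3945 in control females (adjusted p = 6.35e-08). Each genotype thus had loci that were well detected in all its libraries and absent or nearly absent from the other. The most abundant assembled transcript that rose, MSTRG.7989.1, had 198317, 133432 and 171563 normalized counts in mutant females, against 73493, 75193 and 68225 in control females (log2 fold change 1.20 ± 0.32, SE, adjusted p = 0.0362), with an adjusted p of 0.114 without mutant replicate 1, 0.0914 without mutant replicate 3, 0.09 without control replicate 1, 0.0908 without control replicate 2 and 0.103 without control replicate 3. The next, MSTRG.3525.2, had 76230, 67803 and 49092 normalized counts in mutant females, against 2771, 2670 and 3642 in control females (log2 fold change 4.40 ± 0.25, SE, adjusted p = 2.35e-06). The most abundant that fell, MSTRG.9756.2, had 7316, 5864 and 7687 normalized counts in mutant females, against 17007, 12407 and 13457 in control females (log2 fold change -1.04 ± 0.25, SE, adjusted p = 0.025), with an adjusted p of 0.0579 without mutant replicate 1, 0.0802 without mutant replicate 2, 0.0914 without control replicate 1 and 0.0619 without control replicate 3.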

How the data were processed

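Whole third-instar larvae were profiled by RNA-seq after removal of ribosomal RNA. Per the labels and the study's methods, the authors trimmed reads with Trimmomatic 0.39, mapped them to BDGP6 with HISAT2 2.2.1, assembled and quantified transcripts with StringTie 2.1.5 and normalized in DESeq2 1.32.0. The deposited values are a signal, the count of each transcript divided by the size factor of its library, from 0.823 to 1.23 in the female libraries. Reads were recovered from them, and for entries up to 1000 reads 100% came out as whole numbers within 0.01.

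Groups came from the labels. limma 3.58.1 (R 4.3.3, intensity trend) was fitted to log2(normalized count + 1) with 1 mean for each of the 4 groups of the 12 libraries, so that the males share in the estimate of the spread, and p-values were adjusted by Benjamini-Hochberg over the 35284 transcripts, 2156 loci or 150 TE families tested. This scale understates the change of transcripts that are low throughout, and where some libraries of a group are at 0 the fold change rests on the added 1. The p-values measure the spread between 3 libraries per group, each a pool of larvae. Floors of 3 reads cover counting error only. Fold changes are mutant minus control. Alternative tests on the recovered reads used DESeq2 1.42.0 and edgeR 4.0.16.

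The comparison of females, its members, the lists and the named items were chosen with earlier results of these data known, and the types of TE families were assigned after the data were seen. Named items were the largest and most abundant changes whose libraries did not overlap, in each class, the families and insertions that the study names, and further families chosen after their values were seen. Sums per gene, the X chromosome against autosomes, marker genes and sequences were not analysed here, for lack of a table pairing the identifiers.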

Additional observations from a re-analysis of the deposited data

Results flagged for a closer look

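The effect of the mutation differed between females and males for 282 transcripts, 12 assembled loci and 2 TE families (interaction of sex and genotype in limma, adjusted p under 0.05). Of the items named here, the family Cr1a changed by 0.81 ± 0.39 on the log2 scale in females and 3.65 ± 0.39 in males (SE), a difference of -2.83 (adjusted p = 0.0133). The family RR48344 changed by -3.06 ± 0.68 in females and 1.21 ± 0.68 in males, a difference of -4.27 (adjusted p = 0.0269). For the known transcript FBtr0304899, at 0 in all mutant females, the fitted difference was -10.37 (adjusted p = 0.000416), and its means in males were 1283 normalized counts in mutants and 2328 in controls. Locus MSTRG.5478 had a fitted difference of -10.66 (adjusted p = 0.00524), with male means of 294 in mutants and 1735 in controls, and its transcript MSTRG.5478.3 had a fitted difference of -9.80 (adjusted p = 0.00664).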

How the results depend on the processing

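With DESeq2, 7658 transcripts were DE, 5657 of them known and 1289 assembled, 472 at a mean under 10, 1670 at 10 to 100 and 3052 at 100 to 1000. edgeR called 3393 in all and 484 at 10 to 100. With at least 10 reads in each female library, 334 assembled transcripts were DE. Without the largest insertion of each family, 32 families were DE. With the 6 female libraries alone, 4821 transcripts were DE, of which 3592 were among the 4518 of the main fit. In that setting 374 loci and 80 families were DE, 49 of the families higher and 31 lower. Requiring 100 reads left 152 transcripts found in mutant females alone and 173 in control females alone. Leaving out each female library in turn gave 2733 to 3498 DE transcripts, 1849 to 2489 known, 586 to 686 assembled, 298 to 359 TE insertions, 255 to 314 loci and 48 to 54 families. The difference in share, in percentage points, was then 1.32 to 1.71 for TEs, 0.92 to 1.41 for assembled transcripts and -3.13 to -2.24 for known transcripts, and without the 10 most abundant transcripts it was 1.99 for TEs. The replicate numbers did not pair the libraries, with correlations of deviations between 0.0007 and 0.0096, and with the replicate number as a block 4393 transcripts, 359 loci and 68 families were DE, and every named call was kept.

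Among named items, the sign turned without the largest insertion for diver2 (-0.24), invader5 (-0.56), G5A (-0.35), gypsy6 (0.84) and mdg3 (-0.86, adjusted p = 0.0293). Log2 fold changes near 0 that were not called crossed 0 when libraries were left out in turn, with a range of -0.16 to 0.050 for INE-1, -0.11 to 0.32 for blood, -0.18 to 0.026 for MSTRG.9088 and -0.18 to 0.14 for MSTRG.7571. With TMM or another pseudocount, the counts of DE transcripts, loci and families stayed within 1.5 times. So did the counts of DE transcripts with the low counts left out or not, other than the assembled transcripts above. For loci and families the filter on low counts was not varied. Depth limits transcripts under 10 normalized counts, where the smallest absolute log2 fold change called was 2.09.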
